A study of Procambarus virginalis and Procambarus fallax with 9 samples.

Results

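Of the 21773 gene models listed for every library, 45 were detected in the abdominal musculature of only 1 of 2 related crayfish species. The members were chosen from the muscle counts of both species. A gene had to reach an expected count of at least 2 in all 3 muscle libraries of the species that has it and a count of 0 in all 3 of the other. This rule was met by 27 gene models (0.124% of all) in Procambarus virginalis, the marbled crayfish, and by 18 (0.0827%) in Procambarus fallax, the slough crayfish. Because the muscle counts fixed both the members and their direction, the difference between the species is described below and was not tested as a finding. Gene models with equal counts in all 9 libraries cannot be told apart and were counted once, which left 22 genes in the first direction and 18 in the second. For such models the ranks, levels and numbers passing a threshold below use the counts of 1 copy. The sum over the copies is higher. Equal counts occurred widely in these files, with 19.5% of the 16830 gene models that had any counts matching another one in every library. The files do not pair the identifiers with gene names, so at most 2 identifiers are given in a direction and the other members are called by their rank of muscle level.

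The libraries came from the hepatopancreas and the abdominal musculature of 3 P. virginalis animals of the Heidelberg laboratory strain (numbered 2, 6 and 7), and from the abdominal musculature of 3 P. fallax females bought from aquarium supply (numbered 1, 3 and 4). Each library was 1 tissue of 1 animal, no treatment is given in the labels, and ages were not stated. The P. virginalis animals belong to a clonal lineage, whereas the P. fallax females came from outside the laboratory, so that species, clonality and origin cannot be told apart in this comparison. No hepatopancreas library of P. fallax was analysed here. That the reads of both species were counted on the same gene models and with the same settings is inferred only from the identical gene list of all files, which bears on every count of 0 in P. fallax.

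The marbled crayfish is an all-female, parthenogenetic descendant of P. fallax, and its genome carries the gene copies that it inherited from that sexually reproducing species. The abdominal musculature is made mostly of striated fibres that drive the tail flip, while the hepatopancreas is the digestive gland, which secretes enzymes, absorbs nutrients and stores lipid. A gene detected in only 1 of 2 close relatives can differ in its presence, in its transcription or in how well its reads fit the gene model, and read counts alone do not separate these.

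Total expected counts, the fragments that RSEM estimates for each gene, ranged from 6001494 to 18661368 in P. virginalis muscle, from 9109577 to 11942816 in P. fallax muscle and from 12947418 to 67369392 in the hepatopancreas. Levels are given in CPM, the expected count scaled to a common library total, and in TPM where genes are compared per length, since TPM also divides by the effective length of the gene model. The animals whose P. virginalis muscle was read with shorter pairs than the P. fallax muscle were 2 and 6, and the part of read length in the results was not tested. No tissue marker could be checked by name. Sets of 20 abundant genes that dominate a tissue were taken from these same libraries, so their separation by organ is no check of the labels, but they show how the libraries of a tissue differ. The 20 muscle-dominant genes summed to 632889 to 807522 CPM in the muscle libraries and to 1771 to 2600 CPM in the hepatopancreas. The 20 hepatopancreas-dominant genes summed to 430696 to 590354 CPM in that organ and to 18.2 to 67.3 CPM in 5 of the 6 muscle libraries, in which 0 to 9 of the 20 were at 0. The muscle library of P. fallax animal 3 stood apart with 738 CPM and 1 of the 20 at 0.

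The 22 genes detected in P. virginalis muscle only were mostly weakly transcribed there. Their mean muscle level ran from 0.326 to 31.3 CPM with a median of 0.640, and 8 of 22 reached 1 CPM. Per length, the mean ran from 0.247 to 559 TPM with a median of 0.988. For comparison, the median over the 5343 genes with at least 2 counts in all 6 muscle libraries was 3.93 CPM in P. virginalis muscle. In 11 of the 22 genes no muscle library held more than 10 counts. Equal-count models enter these numbers at the level of 1 copy.

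**Figure D1:**
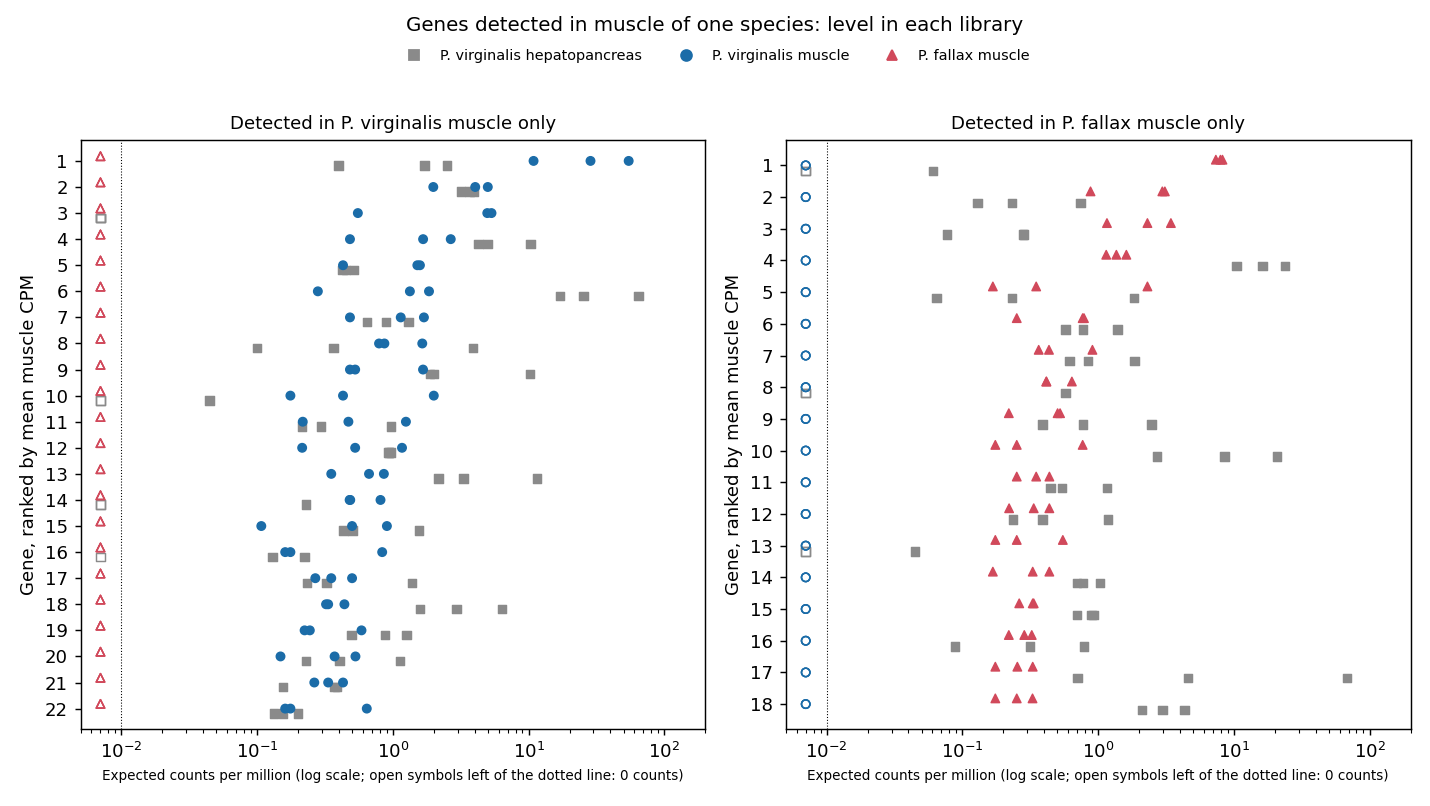
Level of every gene detected in muscle of 1 species only, in CPM on a log axis, with 1 symbol for each library and open symbols left of the dotted line for 0 counts. Genes are ranked by mean muscle level, and hepatopancreas symbols (grey) lie to both sides of the muscle symbols in both directions.

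The most abundant gene in this direction was maker-scaffold33921-exonerate_protein2genome-gene-0.22, a short model of 213 nt with an equal-count copy on the same scaffold. Each copy held 124, 1018 and 171 counts in the muscle of animals 2, 6 and 7, against 0 in each P. fallax library. Those counts correspond to 10.9, 54.6 and 28.5 CPM, and animal 6 was highest and animal 2 lowest. Against the limit that 0 counts allow (3 counts over the 3 P. fallax libraries together, 0.0923 CPM for this species), its level over the 3 P. virginalis muscle libraries together (their summed counts over their summed totals, 36.4 CPM) was at least 395-fold higher. The folds given below for other members set the same pooled level against the same kind of limit. Per length it was also the first of the 22, with 559 TPM on average. Its lowest effective length over the muscle libraries was only 41.7 nt, and its TPM depends strongly on that small divisor.

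The hepatopancreas of the same animals held 26.7, 38.7 and 22.2 counts of each copy. In CPM this was 0.0364, 0.0458 and 0.0600 of the muscle level in animals 2, 6 and 7, so muscle was far higher in all 3. The copies shared reads with other gene models in all 9 libraries, that is, RSEM divided some reads between them and similar sequences. A 277 nt model on the same scaffold was abundant in muscle of both species, with 8003, 28487 and 10585 counts in P. virginalis and 17783, 20589 and 5627 in P. fallax. The pair held 3.00%, 6.67% and 3.14% of the counts of all 3 models in P. virginalis muscle and 65.0%, 65.2% and 69.0% in its hepatopancreas, but 0% in P. fallax muscle. Another model on this scaffold (774 nt), left out of these percentages, also shared reads in all 9 libraries. In the hepatopancreas of animals 2, 6 and 7 it held 72.17, 140.49 and 102.25 counts, against 53.32, 77.46 and 44.36 for the pair. In muscle of these animals it held 24.24, 266.38 and 782.71 counts, against 247.48, 2036.16 and 342.64 for the pair. The counts do not show with which models the pair shared reads, so where those reads belong is uncertain.

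The second rank was a longer gene of 2298 nt that shared no reads with another gene model. It held 46, 37 and 30 counts in the muscle of animals 2, 6 and 7 (4.04, 1.98 and 5.0 CPM) and 246, 61 and 41 counts in the hepatopancreas (3.65, 3.94 and 3.17 CPM). The levels of the organs thus overlapped in P. virginalis, whereas P. fallax muscle had no count, which put the pooled muscle level at least 34.0-fold above the limit for P. fallax. This gene was the most abundant of the 22 whose reads were all assigned to it alone.

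The third rank, maker-scaffold52074-snap-gene-0.13, is 522 nt long and was the only one of the 45 gene models with 0 counts in all 3 hepatopancreas libraries. Muscle held 56.4, 10.3 and 31.9 counts in animals 2, 6 and 7, or 4.96, 0.551 and 5.32 CPM. Animal 6 was thus lowest, opposite to the first rank. The pooled level was at least 29.7-fold above the limit for P. fallax muscle, and this model too shared reads with others in all 9 libraries.

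Several weakly transcribed members had a higher CPM in the hepatopancreas than in muscle of every animal. The sixth rank (1368 nt) held 21, 5.22 and 8 counts in muscle and 4329, 394 and 220 in the hepatopancreas of animals 2, 6 and 7. This model shared reads with others in 4 libraries. In CPM, the hepatopancreas was 34.9, 90.9 and 12.7 times the muscle level of the same animal. The fourth rank (944 nt) held 19, 9 and 16 counts in muscle and 335, 66 and 134 in the hepatopancreas, and the ninth rank, the longest of the 22 at 3177 nt, held 6, 9 and 10 against 692, 29 and 26. In CPM, the hepatopancreas was 2.98, 8.84 and 3.88 times the muscle level for the fourth and 19.5, 3.88 and 1.21 times for the ninth, so that the organs lay close together in animal 7 for the latter. Both shared no reads with another gene model.

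The tenth rank showed the opposite order. Its 1626 nt model held 2, 8 and 12 counts in muscle and 3, 0 and 0 in the hepatopancreas, with no shared reads. In CPM muscle was higher in all 3 animals, on only 2 muscle counts in animal 2.

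The largest group of equal-count models was the twentieth rank, 5 models of 393 nt on 5 scaffolds. Each held 6.03, 2.77 and 2.23 counts in muscle and 75.8, 3.55 and 5.23 in the hepatopancreas. Counted as separate models, they are 5 of the 27.

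The 18 genes detected in P. fallax muscle only were mostly weakly transcribed there as well. Their mean muscle level was 0.251 to 7.85 CPM, with a median of 0.407. The minimum count of the rule equals 0.333 CPM in the shallowest muscle library, which is from P. virginalis, and less in every other muscle library. The median levels of the directions depend on these unlike minimums and are not ranked against each other. Only 4 of 18 reached 1 CPM, and per length the range was 0.123 to 9.77 TPM with a median of 0.823. The median over the 5343 genes present in all 6 muscle libraries was 5.69 CPM in P. fallax muscle. In 12 of the 18 no muscle library held more than 10 counts. No pair of these 18 had equal counts in every library.

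The first rank was snap-scaffold63609-processed-gene-0.6, whose model of 8505 nt was the longest of all 45. It held 95.01, 75.01 and 84.32 counts in P. fallax animals 1, 3 and 4, or 7.96, 8.23 and 7.36 CPM, and 0 in each P. virginalis muscle library. The 3 animals lay within 1.12-fold of each other, the narrowest spread of the 18. Its pooled level was at least 94.0-fold above the limit for P. virginalis muscle (0.0832 CPM over its 3 libraries together). The hepatopancreas of P. virginalis held 4.07 counts in animal 2 and 0 in animals 6 and 7. Because the model is long, the gene was only the tenth of 18 by TPM, and it shared reads with other models in 8 libraries.

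The second rank was maker-scaffold232353-snap-gene-0.7, a model of 1613 nt with no shared reads and no other gene model on its scaffold. P. fallax muscle held 37, 8 and 34 counts in animals 1, 3 and 4, or 3.10, 0.878 and 2.97 CPM, with animal 3 lowest. The hepatopancreas of P. virginalis held 50, 2 and 3 counts (0.742, 0.129 and 0.232 CPM), below every P. fallax muscle library. The pooled muscle level was at least 29.2-fold above the limit for P. virginalis muscle.

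The third and the fourth rank were short models of 381 and 312 nt and the first 2 by TPM. The third held 41, 21 and 13.3 counts in P. fallax muscle and 18.9, 4.41 and 1 in the P. virginalis hepatopancreas. Reads of the third were shared with other models in 5 libraries. The fourth held 16.3, 10.4 and 18.5 counts in P. fallax muscle but 1601, 251 and 136 in the hepatopancreas of P. virginalis. This model was well transcribed in that organ of the same P. virginalis animals whose muscle had no count, and it shared reads with other models in all 9 libraries.

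The fifth rank (2058 nt, no shared reads) varied most, with 2, 21 and 4 counts in P. fallax animals 1, 3 and 4, a 13.8-fold range in CPM. It was high in animal 3 alone, the library in which the hepatopancreas-dominant genes summed to 738 CPM. The P. virginalis hepatopancreas held 124, 1 and 3 counts of it in animals 2, 6 and 7. These equal 1.84, 0.0646 and 0.232 CPM, each below the 2.31 CPM in the muscle of P. fallax animal 3. Among the 12 genes that P. virginalis hepatopancreas transcribed in all 3 animals, 4 were highest in animal 3, and among all 18 there were 8. The part of hepatopancreas RNA in these levels was not tested.

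Other weak members were abundant in the hepatopancreas. The tenth rank (1505 nt, no shared reads) held 3, 7 and 2 counts in P. fallax muscle and 183, 321 and 110 in P. virginalis hepatopancreas. The seventeenth (425 nt) held 3.03, 3 and 2 counts in P. fallax muscle and 47.3, 70.8 and 878 in the hepatopancreas, where animal 7 was far above the others. Those counts equal 0.703, 4.57 and 67.8 CPM, so its mean hepatopancreas level rests on animal 7. Unlike the tenth, the seventeenth shared reads with other models, in 5 libraries.

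How far a count of 0 separates the species depends on depth. The limit of 3 counts that a 0 allows was 0.251 to 0.329 CPM in the single P. fallax libraries and 0.161 to 0.500 CPM in those of P. virginalis. The lowest muscle level exceeded each of these limits of the other species in 10 of 22 genes detected in P. virginalis muscle and in 4 of 18 detected in P. fallax muscle. In the remaining 12 and 14, at least 1 library of the species that has the gene did not exceed every such limit, although other libraries of the same gene could lie well above them. Against the pooled limits, the pooled level was at least 2.66-fold to 395-fold higher in the first direction, with a median of 6.21, and at least 2.95-fold to 94.0-fold higher in the second, with a median of 4.81. More than 10-fold was reached by 7 of 22 and 4 of 18. Equal-count models were again taken at the level of 1 copy, which understates their sum. These limits cover counting error only.

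**Figure D2:**
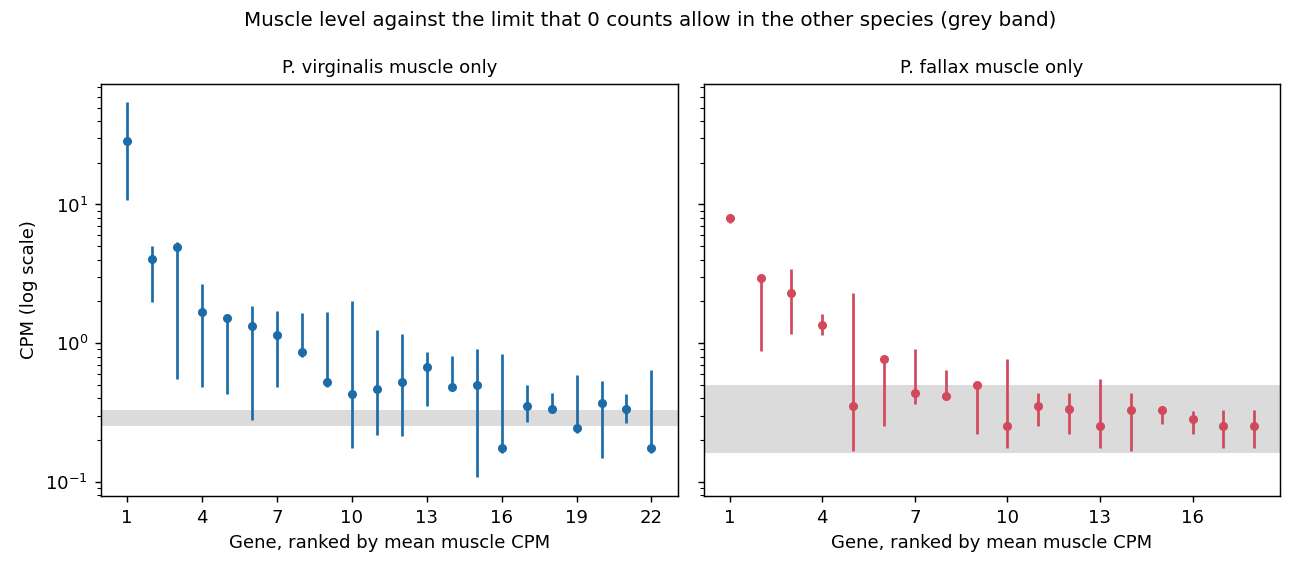
Lowest, middle and highest muscle level of each gene over the 3 animals that have it (line ends and point, CPM on a log axis), with a grey band for the range of limits that 0 counts allow in the libraries of the other species. The lowest level lies above the band for 10 of 22 genes on the left and 4 of 18 on the right.

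Many members sat at the threshold itself. The lowest muscle count was under 3 in 12 of the 27 gene models in the P. virginalis direction and in 9 of the 18 in the P. fallax direction. Just outside the rule, 36 and 57 gene models had a lowest count of 1 to under 2 with 0 in the other species. Another 34 and 84 had at least 2 counts in every library of a species and counts in exactly 1 library of the other. Without 1 library the rule was easier to meet and the 27 became 42 without P. virginalis animal 6, 42 without animal 7 and 44 without P. fallax animal 4, while the 18 became 32 to 62 without any 1 of the 6 animals.

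The muscle levels of the members differed among animals, but the rule used these same counts. Its minimum of 2 counts is a higher CPM in a shallower library, so nothing is read from the order of the animals. Of the 22 genes, 14 had their highest muscle CPM in animal 7, 5 in animal 2 and 3 in animal 6. The median level of the 22 was 0.527, 0.429 and 1.21 CPM in animals 2, 6 and 7. Animal 7 had the shallowest muscle library, in which 2 counts equal 0.333 CPM, and its hepatopancreas-dominant genes summed to 67.3 CPM against 23.0 and 42.2 CPM in animals 2 and 6. The part of depth and of other tissue in this order was not tested. In the P. fallax direction 5, 8 and 5 genes were highest in animals 1, 3 and 4, with medians of 0.329, 0.493 and 0.424 CPM.

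Hepatopancreas libraries were not used by the rule and show whether P. virginalis transcribes a gene in another organ. A gene was taken as transcribed there with at least 2 counts in all 3 libraries. By this measure the hepatopancreas transcribed 22 of the 27 gene models detected in P. virginalis muscle only, or 81.5%, and 17 of 22 counted once (77.3%). Members are genes and not replicates, so such shares are described and not tested. Another 4 had counts in the hepatopancreas without reaching 2 in every library, and 1 had none. Among the 5886 genes with at least 2 counts in all 3 P. virginalis muscle libraries the share was 95.0%, among the 5343 with at least 2 counts in all 6 muscle libraries 96.2%, and among all gene models 39.8%. Among the 16830 gene models with any counts it was 51.5%.

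Of the 18 genes detected in P. fallax muscle only, P. virginalis transcribed 12 in its hepatopancreas, or 66.7%. The other 6 did not reach 2 counts in every library, but each of the 18 had counts in at least 1 of them. Counts in at least 1 of these libraries were also found for 6069 of the 6093 genes with at least 2 counts in all 3 P. fallax muscle libraries and for 16413 of the 16830 gene models with any counts, so the 18 of 18 lies near the background. Transcription in all 3 libraries was seen for 95.0% of those 6093 genes, above the share of the members, and for 6.63% of the 11000 gene models with 0 counts in all 3 P. virginalis muscle libraries, a group that also holds models without counts in any library.

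The deepest hepatopancreas library, from animal 2, detected most members. It had counts for 26 of the 27 gene models of the P. virginalis direction, against 24 and 23 in animals 6 and 7. For the 18 of the P. fallax direction the numbers were 17, 15 and 16. With a minimum of 10 counts in all 3 libraries the shares fell to 33.3% and 27.8%, so most members were weak in the hepatopancreas as well. In a bulk tissue, a smaller number of cells that transcribe a gene and less RNA in each of them cannot be told apart.

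Within animals, the hepatopancreas was higher than muscle in all 3 for 7 of the 22 genes detected in P. virginalis muscle, in 2 animals for 3 genes, in 1 for 8 and in none for 4. By animal, 14, 14 and 7 of the 22 were higher in the hepatopancreas of animals 2, 6 and 7, with median ratios of 1.75, 1.29 and 0.549. The ratios thus pointed both ways over the 22. They divide by muscle counts that the rule used, and its minimum is a higher CPM in the shallow muscle library of animal 7. Nothing is therefore read from the order of the animals here either. The mean hepatopancreas level exceeded the mean muscle level of the species that has the gene in 11 of 22 and 12 of 18, and by at least 5-fold in 4 of each. In the P. fallax direction this sets P. virginalis hepatopancreas beside P. fallax muscle, so that organ and species differ together. A higher hepatopancreas level was not particular to the members. Over the 5343 genes present in all 6 muscle libraries, the median was 8.32 CPM in the hepatopancreas. It was 3.93 CPM in P. virginalis muscle and 5.69 CPM in P. fallax muscle. CPM was scaled to library totals only, and the part of the abundant genes of each tissue in this order was not tested.

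**Figure D3:**
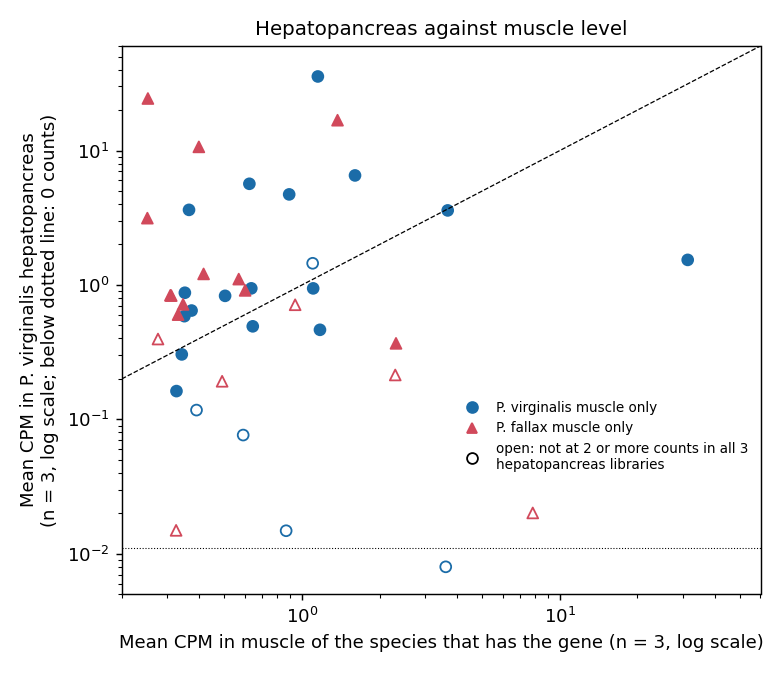
Mean level in P. virginalis hepatopancreas against mean level in the muscle of the species that has the gene (CPM, log axes, n = 3 animals each), with a dashed line of equal levels. Points lie above the line for 11 of 22 genes detected in P. virginalis muscle only (circles) and 12 of 18 detected in P. fallax muscle only (triangles), and open symbols mark genes below 2 counts in any hepatopancreas library.

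Length was not used by the rule. The 22 genes of the P. virginalis direction had a median length of 636 nt (213 to 3177 nt) and the 18 of the P. fallax direction one of 611 nt (297 to 8505 nt). All gene models had a median of 546 nt, the 16830 with any counts one of 672 nt, and the 5343 genes present in all 6 muscle libraries one of 1563 nt. Models shorter than 1000 nt made up 16 of 22 (72.7%) and 11 of 18 (61.1%). The share was 72.1% of all models, 64.8% of those with any counts and 29.1% of the genes present in all 6 muscle libraries. The median lengths of the members thus lay between that of all gene models and that of the models with any counts. They lay below that of the genes detected in muscle of both species. Every member is a gene model with 1 transcript, and none had an effective length of 0.

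Reads that fit more than 1 gene model were common among the members. RSEM gave a posterior standard deviation above 0, the sign of shared reads, in at least 1 library for 15 of the 22 genes (68.2%) and for 14 of the 18 (77.8%). The share was 19.8% among the genes present in all 6 muscle libraries, 41.5% among all gene models and 47.5% among the 16830 with any counts. For these members the division of reads between similar models is uncertain, and how far it made the counts of 0 was not tested.

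**Figure D4:**
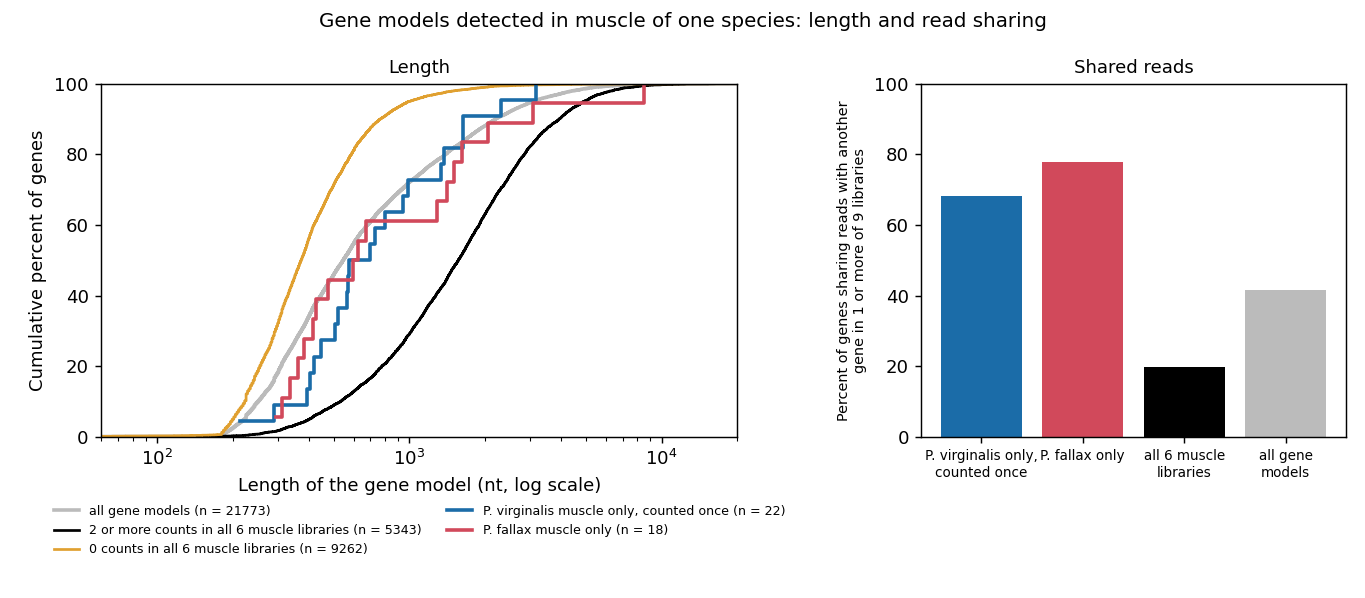
Left, cumulative percent of genes against length (nt, log axis) for both directions, all gene models, and models present in or absent from all 6 muscle libraries. Right, bars from 0 for the percent of genes that shared reads in at least 1 of 9 libraries. It was 68.2% and 77.8% for the members, 19.8% for genes present in all 6 muscle libraries and 41.5% for all gene models.

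The members whose reads were all assigned to them alone numbered 7 and 4. The 7 of the P. virginalis direction were 732 to 3177 nt long with a median of 986 nt, and 5 of them were transcribed in all 3 hepatopancreas libraries. The 4 of the P. fallax direction were 624 to 2058 nt long with a median of 1559 nt, and 3 of them were so transcribed. Members that shared reads were shorter, with medians of 522 and 450 nt.

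The identifiers start with the name of the pipeline or predictor that gave the gene model, and those that start with maker can name a predictor or a protein alignment further on, so the prefixes are not separate predictors. Among the 22 genes, 10 carried the maker prefix, 8 snap_masked, 3 snap and 1 evm, and among the 18 there were 7 maker, 9 snap, 2 evm and 0 snap_masked models. Over all gene models the shares were 38.8% maker, 28.1% snap, 23.4% snap_masked and 9.68% evm, whereas genes present in all 6 muscle libraries were 53.5% maker and 24.7% evm. The members lay on scattered scaffolds: the 27 gene models were on 26 scaffolds and the 18 on 18, and 0 scaffolds held members of both directions. Another gene model lay on the scaffold of 14 of the 22 and 13 of the 18, and for 4 and 5 of them such a neighbour was detected in muscle of both species. The only model on its scaffold was found for 36.4% of the 22 and 27.8% of the 18, near the 33.3% of all gene models. The share with a neighbour detected in muscle of both species was not computed over all gene models.

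In the edgeR quasi-likelihood comparison of the species in muscle, 5053 genes passed the filter on low counts and 63 (1.25%) had a Benjamini-Hochberg adjusted p under 0.05, of which 49 (0.970%) were higher in P. virginalis and 14 (0.277%) higher in P. fallax. By construction, the rule keeps the muscle libraries of both species apart for all 45 members, and 9.93% of the genes tested also showed no overlap. Only 7 of the 45 gene models passed that filter, 3 and 4 in the 2 directions, and 7 of 7 were called. The 3 of the P. virginalis direction are the first rank, its equal-count copy and the second rank. A member could pass only through the group in which it is high, and the rule used the same counts, so nothing is read from the number called. The adjusted p ranged from 0.00242 for the second rank of the P. virginalis direction to 0.0469 for the third rank of the P. fallax direction. Without P. virginalis animal 2 or animal 7 only 4 members were called, each time 3 of the P. virginalis direction and 1 of the P. fallax direction. Over all runs without 1 library, 1 to 2 members of the P. fallax direction were called and 3 to 7 of the other.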

How the data were processed

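RNA-seq data of 9 libraries were analysed, with species, tissue and animal taken from the sample titles. The authors deposited 1 RSEM gene table for each library. The expected counts, an RSEM estimate of fragments per gene, were deposited by the authors without normalization, and the TPM values were computed by the authors with RSEM from the expected count and the effective length. The deposited posterior standard deviation of the count and the gene length were used as given. The submitters' processing notes name HISAT2 2.0.4 and RSEM 1.2.30, while genome build, gene model release, read trimming and strand setting were not given in the sources used here. Further deposited columns (FPKM, posterior mean and interval bounds) were not used.

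The members and lists were chosen with earlier results of these data known. CPM was computed from expected counts and their library total. A limit for 0 counts was set at 3 counts, for a single library or over the 3 libraries of a species together. Groups held 3 animals each, so depth and animal number limit the precision. The p-values weigh the difference between the species against the spread between animals.

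For the species comparison, the expected counts of the 6 muscle libraries, rounded to whole numbers, entered a test with edgeR 4.0.16 (R 4.3.3, quasi-likelihood, TMM factors, filterByExpr, Benjamini-Hochberg over all genes tested, threshold 0.05). The step was tested on simulated data. DESeq2 1.42.0 and limma 3.58.1 were alternatives, beside other count minimums, CPM and TPM rules, RLE factors, no filter and leaving out each animal. Other steps used Python 3.11.15, pandas 2.3.3, NumPy 2.4.6, SciPy 1.17.1 and matplotlib 3.10.9.

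The identifiers named were, in each direction, the member with the highest mean muscle CPM among those with at least 2 counts in all 3 hepatopancreas libraries and the same among those with 0 counts in all 3. No member of the P. fallax direction met the latter condition, and the next by mean muscle CPM was taken. Tissue-dominant genes were the 20 with the highest mean CPM in a tissue among those at least 10 times the mean of the other. Antisense and overlapping models could not be separated. No genome or sequence was used here.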

Additional observations from a re-analysis of the deposited data

How the results depend on the processing

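The number of members depended strongly on the threshold. With a minimum count of 1, 5 or 10 in place of 2, the 27 gene models detected in P. virginalis muscle only became 63, 10 or 4, and the 18 detected in P. fallax muscle only became 75, 4 or 3. A minimum CPM equal to 2 counts in the shallowest muscle library (0.333 CPM) gave 11 and 6, and TPM above 0 against TPM of 0 gave 71 and 81. Allowing a sum of at most 1 count in the other species gave 48 in the P. fallax direction and 37 in the other. Restricting the rule to models that shared no read with another, an alternative chosen after seeing the data, gave 7 and 4. Leaving out 1 library gave 32 to 44 and 32 to 62: in the P. virginalis direction 42 without P. virginalis animal 6, 42 without animal 7 and 44 without P. fallax animal 4, and in the P. fallax direction 62, 46 and 33 without P. fallax animals 1, 3 and 4 and 45, 32 and 61 without P. virginalis animals 2, 6 and 7. A rule over fewer libraries is met more easily by its construction.

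The share transcribed in the hepatopancreas (81.5% and 66.7%) became 96.3% and 100% with any count in any library and 33.3% and 27.8% with at least 10 counts in all 3. It was 81.5 to 88.9% and 66.7 to 77.8% without 1 hepatopancreas library. Under the other alternatives it was 71.4 to 88.9% and 61.1 to 83.3%. The 7 gene models called by edgeR include both equal-count copies of the first P. virginalis rank. Their number became 16 with DESeq2 and 23 without a filter on low counts. It was 4 to 9 when a library was left out, with 4 without P. virginalis animal 2 and 4 without animal 7. The causes were not tested. No paired analysis was possible because the muscle groups of the species, the only groups compared by a test, share no animal number. The organs of P. virginalis do share animals and were compared by ratios within each animal, with no test.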
